A study of Sparus aurata with 16 samples.

Results

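A set of 34 array sequences of the gilthead sea bream (Sparus aurata) was described, out of 25225 sequences on the array, that had more signal in the liver and less signal in the white skeletal muscle of starved fish than of fed fish. The set was chosen on these measurements themselves. For each sequence and channel the log2 processed signal of Feature Extraction was averaged, and the mean of the 12 fed fish was subtracted from the mean of the 4 starved fish. A member had a difference of at least 0.7 in the liver with all 4 starved fish above all 12 fed fish, and a difference of -0.7 or lower in the muscle with all 4 starved fish below all 12 fed fish. It also had a spot well above background in the 4 starved liver channels and the 12 fed muscle channels. The liver side alone was met by 1878 sequences (7.44%) and the muscle side by 364 (1.44%). Both sides were met by 39 sequences, of which 34 passed the demand on background. Starved-minus-fed differences are therefore a description of the set, and no test of them is given.

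The fish were juveniles. The fed groups received diets HLL, MHL or LLH for 23 days at 25 g per kg body weight a day, where the letters give the protein, lipid and carbohydrate level as high, medium or low, and the starved group had no food over the same time. Each group had 4 fish in each tissue, the fish were hybridised as pairs on 16 two-colour arrays (8 for each tissue), and the labels do not say which liver and muscle channels came from one animal. The Cy5 fish of one liver array carries the names of 2 diets in its labels and was taken as HLL. It is liver HLL fish 1 below. One slide held every liver array and a second slide every muscle array. In levels compared between tissues, effects of slide and of tissue cannot be told apart.

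In food-deprived fish the liver mobilises glycogen and lipid and makes glucose from other substrates, whereas white muscle, the largest tissue of the body, is the main protein reserve and lowers its growth and protein synthesis. A transcript that is higher in one of these tissues and lower in the other during a fast is one whose level depends on tissue and feeding state together. All 34 members had identifiers of the form isotig and a number. An isotig is a transcript built by the assembler from overlapping reads, and these identifiers are not paired with gene symbols in the sources used here, so that members are named by identifier and no role is given for them. Each member had 2 probes. As a check of the tissue labels, the liver-type pyruvate kinase PKL had a normalised log2 intensity between 9.02 and 10.44 in the 16 liver channels and between 6.92 and 7.58 in the 16 muscle channels. PKM, the muscle-type enzyme, did not separate the tissues, with 6.24 to 6.52 in the liver and 6.36 to 6.58 in the muscle. Between 56.0 and 66.6% of the spots of a channel were well above background, and no spot was saturated.

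The processed signals are not centred between channels. Over all sequences the median starved-minus-fed difference on this scale was 0.24 for liver and 0.52 for muscle, so that the threshold of 0.7 was nearer to the median of the array in the liver than in the muscle. All values that follow are log2 intensities after background correction, Loess within arrays and Aquantile normalisation between arrays. On that scale the median difference over all sequences was 0.00 in both tissues. The median over the members was 0.83 in the liver (lowest 0.13, highest 5.34) and -1.73 in the muscle (lowest -4.58, highest -0.66). The difference was larger in size in the muscle for 22 members and in the liver for 12. On the processed signals that chose the members, it was larger in the muscle for only 16 of the 34. A difference of at least 1 was found for 13 members in the liver and 32 in the muscle. All starved fish were below all fed fish in the muscle for 34 of 34 members, against 8.61% of all sequences, and above all fed fish in the liver for 27 of 34, against 6.15% of all sequences. These shares are fixed to a large extent by the choice of the members. The plot of the members in each fish shows that the 7 members whose groups overlapped in the liver, isotig03813, isotig06321, isotig08242, isotig08647, isotig10302, isotig13061 and isotig13658, overlapped through their highest fed fish.

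**Figure D1:**
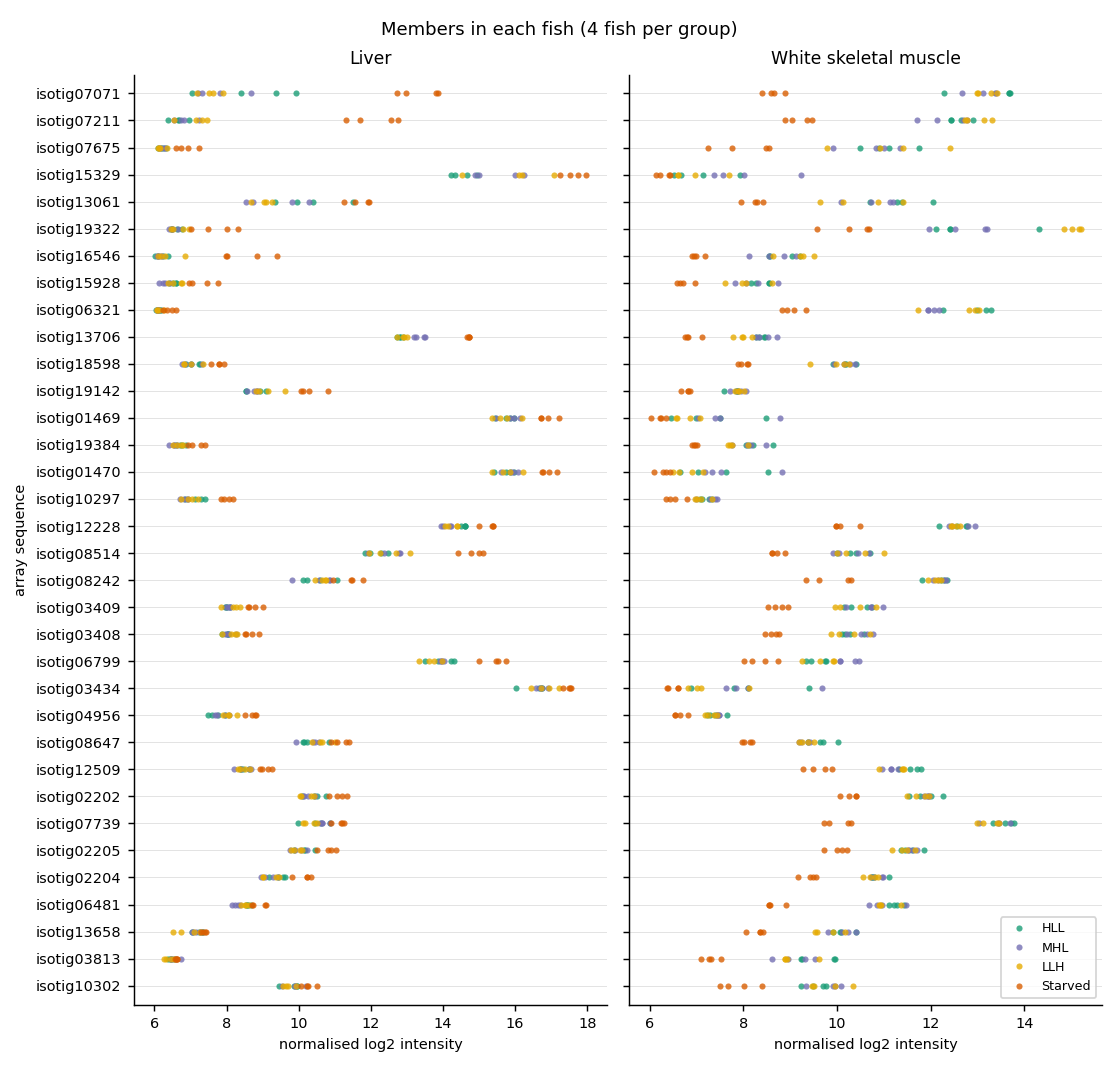
Normalised log2 intensity (x axis) of the 34 members (rows, ordered by the smaller of their processed differences in both tissues) in the liver (left) and the white skeletal muscle (right). Each point is one fish, 4 fish per group, coloured by group. Starved fish lie to the left of all fed fish in every row of the muscle panel and to the right of all fed fish in 27 of 34 rows of the liver panel.

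The members with the largest liver differences were isotig07071 and isotig07211. In the liver isotig07071 had 12.71, 12.97, 13.87 and 13.79 in the starved fish, 9.92, 8.39, 9.37 and 7.04 in fish fed HLL, 7.19, 7.82, 7.33 and 8.69 with MHL, and 7.91, 7.18, 7.51 and 7.63 with LLH. The lowest starved fish was well above the highest fed fish, and the fish fed HLL were the most scattered (SD 1.26, n = 4, against 0.30 with LLH). In the muscle the same sequence had 8.59, 8.90, 8.40 and 8.66 in the starved fish and between 12.28 and 13.71 in the fed fish, with a median of 13.33. The starved-minus-fed difference was 5.34 in the liver, a 40.4-fold higher level, and -4.58 in the muscle, a 23.9-fold lower level. It was the largest difference of the set in each tissue on the normalised scale. Starved liver (13.33 ± 0.58, SD, n = 4) and fed muscle thus had similar log2 intensities, as is seen in the plot of 6 members by group. Fed liver (median 7.72) was mostly below starved muscle (8.40 to 8.90), although its range included those values. These levels were normalised within each tissue, so that they compare the tissues only roughly. After the joint normalisation muscle minus liver was 5.62 in fed and -4.37 in starved fish.

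For isotig07211 the starved livers had 12.56, 11.32, 11.71 and 12.74 and the fed livers between 6.36 and 7.45 (median 6.77). The groups were far apart, with a 37.1-fold higher level in starved fish. In the muscle the starved fish had 9.03, 9.36, 8.88 and 9.47 and the fed fish between 11.71 and 13.31 (median 12.71), a difference of -3.46. No group of this sequence overlapped between starved and fed fish in either tissue.

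**Figure D2:**
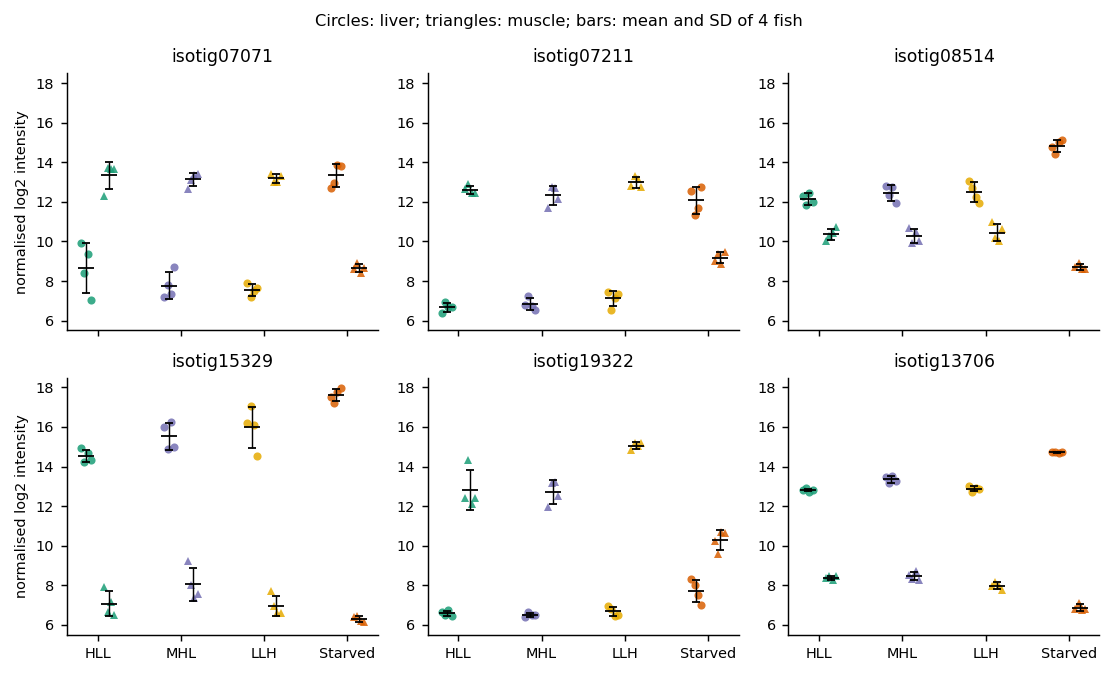
Normalised log2 intensity (y axis) of 6 members in the 4 groups, with circles for the liver, triangles for the muscle and bars for the mean and SD of 4 fish. Liver and muscle exchange places between fed and starved fish for isotig07071 and isotig07211, whereas isotig08514, isotig15329 and isotig13706 were higher in the liver and isotig19322 higher in the muscle in all groups.

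When levels of one sequence were compared between tissues after a joint normalisation, 23 of the 34 members were higher in fed muscle than in fed liver and 11 were higher in fed liver. The median of fed muscle minus fed liver was 1.87 over the members and 0.00 over all sequences, and 21 members were higher in fed muscle by at least 1, against 16.1% of all sequences. The demand for signal above background in fed muscle bears on this share. In starved fish the median of muscle minus liver was -1.27 over the members and 0.01 over all sequences, and 24 members were higher in the liver. The order of the tissues turned for 13 members, which were higher in the muscle of fed fish and in the liver of starved fish, as were 1802 of all sequences (7.14%). For 10 members the muscle was higher in both states and for 11 the liver was. The choice of members demands a rise in the liver and a fall in the muscle of starved fish. It therefore favours such a turn and more signal in starved liver, and these counts support nothing beyond that choice.

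**Figure D3:**
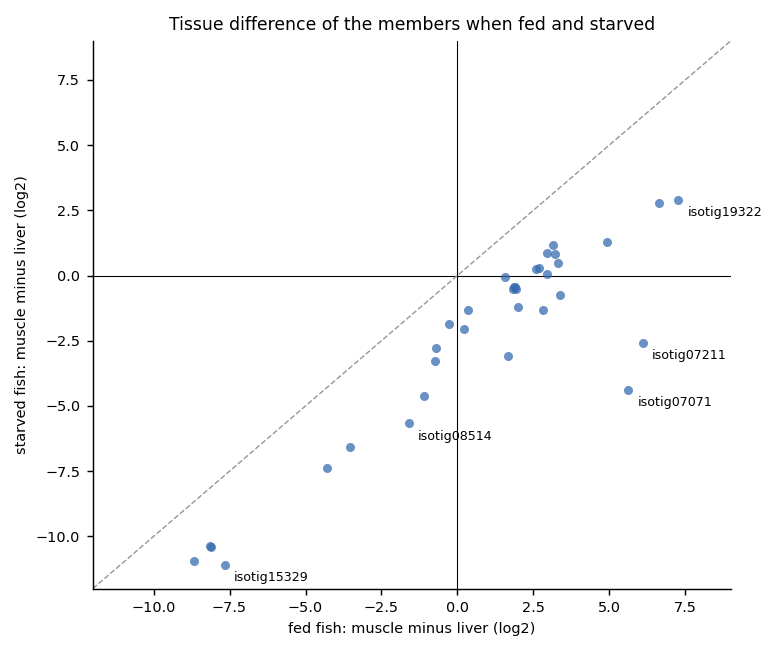
Muscle-minus-liver log2 difference of each member in starved fish (y axis) against that in fed fish (x axis), each point one member and the dashed line equality. All points lie below the line, which the choice of members fixes, and 13 lie at the lower right, where the muscle was higher in fed fish and the liver in starved fish.

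Of the 10 members that were higher in the muscle in both states, isotig19322, isotig06321 and isotig07675 had little signal in the liver. So had isotig03813 (liver mean 6.47 in fed and 6.60 in starved fish), which is described further below. For isotig19322 the fed muscle had between 11.97 and 15.21 (median 13.19) and the starved muscle 10.26, 9.58, 10.69 and 10.65, a 9.42-fold lower level. In the liver the fed fish had between 6.42 and 6.96 and the starved fish 8.32, 8.01, 7.49 and 7.02. All starved livers were above the fed ones, but still below every muscle sample. For isotig06321 the fed muscle had between 11.73 and 13.30 and the starved muscle 8.84, 9.33, 8.94 and 9.08. The lower level of the starved muscle was 11.2-fold. This sequence was well above background in 1 of 12 fed livers and in none of the HLL or MHL fish, and its starved livers (6.35, 6.47, 6.59 and 6.23) were at least 1.23-fold above HLL and at least 1.25-fold above MHL. Bounds of this kind set the mean of the starved fish against the higher of the measured signal and the lowest signal that was well above background on each array. For all bounds given in the liver the measured signal was the higher. Those bounds therefore equal the fold differences on the normalised scale. The background correction adds an offset of 50 to the signals, which makes differences of dim sequences smaller on this scale. For isotig06321 the liver difference was 0.30 after normalisation and 2.11 on the processed signals.

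For isotig07675 the fed muscle had between 9.78 and 12.42 and the starved muscle 7.76, 7.25, 8.54 and 8.49, a 7.89-fold lower level. Its signal was well above background in 2 of 12 fed livers and in none of the LLH fish. The starved livers had 6.60, 7.23, 6.75 and 6.92, at least 1.62-fold above LLH. These are small differences near the lower end of the scale, although the processed difference of isotig07675 was 3.01. Another sequence of this kind was isotig16546, with fed livers between 6.03 and 6.84, well above background in 2 of 12, and starved livers of 8.84, 7.99, 8.01 and 9.41, at least 5.23-fold above HLL. In the muscle it had 6.91 to 7.19 in starved fish and 8.13 to 9.51 in fed fish. Unlike isotig19322, isotig06321 and isotig07675, isotig16546 was higher in the liver than in the muscle of starved fish (muscle minus liver -1.32). Of the other members, isotig03813 and isotig15928 were well above background in 10 and 11 of the 12 fed livers.

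The 11 members with more signal in the liver in both states differed in brightness. For isotig08514 the starved livers had 14.79, 14.43, 15.01 and 15.12 and the fed livers 11.85 to 13.07 (median 12.32), a 5.52-fold higher level. In the muscle the starved fish had 8.71, 8.89, 8.61 and 8.61 and the fed fish at least 9.93 (median 10.35), a 3.15-fold lower level. Neither tissue showed an overlap, and the levels of both were well within the measured range. Similarly, isotig13706 had 14.73, 14.72, 14.67 and 14.73 in starved livers (SD 0.03) against 12.72 to 13.50 in fed livers, and 6.79, 7.11, 6.77 and 6.81 in starved muscle against 7.77 to 8.72 in fed muscle. The level was 3.25-fold higher in starved liver and 2.65-fold lower in starved muscle. For isotig12228 the differences were 0.97 (liver) and -2.45 (muscle), and for isotig06799 they were 1.57 and -1.49. Also higher in the liver were isotig04956 (0.83 and -0.75), isotig08647 (0.73 and -1.37) and isotig19142, which had 10.80, 10.27, 10.06 and 10.12 in starved livers and at most 9.62 in fed livers.

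The other 4 of these members, isotig01469, isotig01470, isotig03434 and isotig15329, were among the brightest sequences in the liver and among the dimmest members in the muscle. Their fed-liver level ranked between 218 and 503 among all sequences. For isotig15329 the starved livers had 17.52, 17.23, 17.75 and 17.96 and the fed livers 14.23 to 17.07, a 4.80-fold higher level with no overlap. In the muscle the starved fish had 6.40, 6.43, 6.22 and 6.15 and the fed fish 6.51 to 9.23, with 2 of 4 starved fish well above background. For isotig01469 the starved livers had 17.23, 16.71, 16.92 and 16.73 and the fed livers 15.37 to 16.20. Its starved muscle was not well above background in any fish (6.25, 6.36, 6.02 and 6.22), and fed muscle was at least 2.20-fold (HLL), 2.74-fold (MHL) and 1.46-fold (LLH) higher.

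The fed muscle samples differed widely among themselves for these 4 sequences, and they did so together. MHL fish 1 and HLL fish 1, which shared an array, had the highest muscle values for isotig01469 (8.78 and 8.49), isotig01470 (8.83 and 8.53) and isotig03434 (9.69 and 9.40). For isotig15329 the highest was again MHL fish 1 (9.23), followed by MHL fish 2 (8.01) and HLL fish 1 (7.92). The same fish had the highest muscle signal for sequences that are abundant in liver in general. Over the 100 sequences with the highest fed-liver level, none of them a member, the median log2 intensity in the muscle was 12.52 in HLL fish 1 and 11.55 in MHL fish 1, between 8.01 and 10.96 in the other fed fish, and 8.70, 7.49, 7.54 and 7.49 in the starved fish. Of these 100 sequences, 97 were lower in starved than in fed muscle on average, against 49.8% of all sequences. Lower by at least 1 were 77, against 3.92% of all sequences. In the liver itself 30 of the 100 were higher in starved than in fed fish. Their part in the muscle differences of the liver-bright members was not tested, nor was whether the fed muscle samples held liver RNA. Without both fish of that array the muscle difference was -1.04 instead of -1.38 for isotig03434, the only one of the 4 with all starved muscles well above background. The median over the 34 members was -1.73 with and without them. The 4 liver-bright members had muscle differences smaller in size than this median in both cases. The median therefore cannot show a change in those 4. PKL, a gene expressed in liver, had 6.97, 6.91, 6.90 and 6.90 in starved muscle and 6.87 to 7.51 in fed muscle, with 7.02 in HLL fish 1 and 6.98 in MHL fish 1. It was far dimmer in the liver itself (9.02 to 10.44) than the 4 members, so its muscle values cannot show what happened to theirs. In the reverse direction, the 100 sequences with the highest fed-muscle level were looked at in the liver. In starved fish 68 were lower on average, against 51.0% of all sequences, and 32 were higher, with a median difference of -0.30. At least 1 lower were 18, against 2.58% of all sequences, and at least 1 higher were 22, against 2.49%. The median log2 intensity of these 100 sequences in the liver was 10.45 in MHL fish 4. It was between 8.54 and 9.56 in the other fish, fed or starved. In the muscle itself 3 of these 100 were higher in starved than in fed fish. In tissue RNA of this kind fewer cells of a type and less RNA per cell cannot be told apart.

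**Figure D4:**
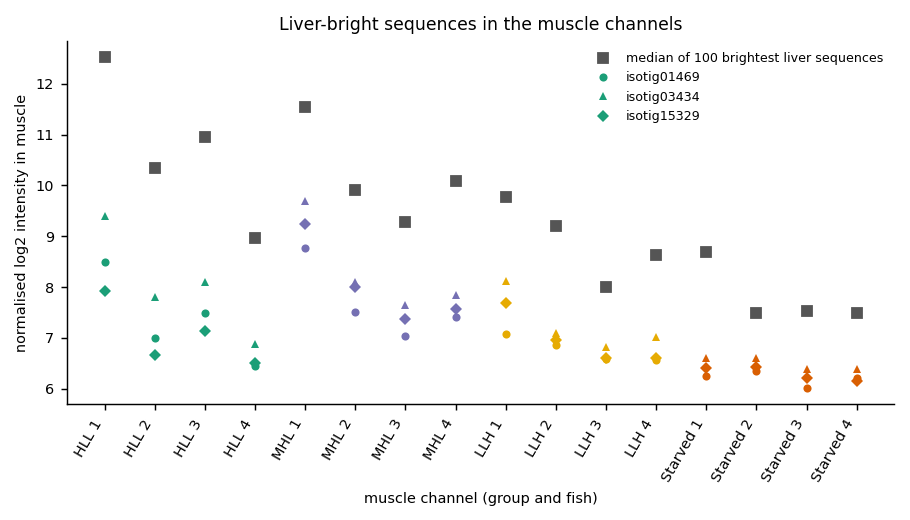
Normalised log2 intensity in the 16 muscle channels (x axis, group and fish) of 3 members that are bright in the liver (small symbols, coloured by group) and the median of the 100 sequences with the highest level in fed liver (grey squares). HLL fish 1 and MHL fish 1 have the highest medians (12.52 and 11.55), and 3 of the 4 starved fish the lowest (7.49 to 7.54).

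The other members had intermediate levels in at least one tissue. For isotig13061 the starved livers had 11.93, 11.27, 11.95 and 11.55 and the fed livers 8.54 to 11.50, so that one fish fed HLL lay above one starved fish. The starved muscle had 7.96, 8.24, 8.30 and 8.41 and the fed muscle 9.64 to 12.04, a 6.31-fold lower level without overlap. For isotig18598 the starved-minus-fed difference was 0.74 (liver) and -2.10 (muscle), and for isotig15928 it was 0.83 and -1.49. The largest muscle difference in this group was that of isotig07739, with 10.29, 9.73, 9.84 and 10.25 in starved muscle against 12.99 to 13.79 in fed muscle, a 10.5-fold lower level, beside a liver difference of 0.63. The remaining members, isotig02202, isotig03813, isotig06481, isotig08242, isotig10297, isotig10302, isotig12509, isotig13658, isotig19384, isotig02204, isotig02205, isotig03408 and isotig03409, had liver differences between 0.13 and 0.87, except for isotig10297 with 1.0, and muscle differences between -2.46 and -0.66.

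Among the members 3 pairs had adjacent numbers, namely isotig01469 and isotig01470, isotig02204 and isotig02205, and isotig03408 and isotig03409. Isotigs of one locus can share sequence, so that such pairs may not be separate measurements. The first pair had liver differences of 1.12 and 1.11 and muscle differences of -1.06 and -1.04, which background limits in the starved muscle, and their values differed by at most 0.19 in any fish. For isotig02204 and isotig02205 the liver differences were 0.87 and 0.79 and the muscle differences -1.42 and -1.52, and isotig02202, whose number is close to theirs, had 0.81 and -1.57. For isotig03408 and isotig03409 they were 0.60 and 0.67 for liver, -1.73 and -1.74 for muscle. Both probes of a member gave the same direction for 34 of 34 members in each tissue. The median gap between the differences of the probes was 0.10 for liver and 0.18 for muscle, and the largest, 0.63 and 1.0, was in both tissues that of isotig15928.

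Few sequences lay near the threshold of 0.7. Just inside it in the liver were isotig10302 (processed difference 0.79), isotig03813 (0.80) and isotig13658 (0.81). Just outside, with all other demands met, were isotig11047 (0.53) and isotig18693 (0.41). In the muscle the members nearest to it were isotig02204 (-0.93), isotig02205 (-0.94) and isotig02202 (-0.99), and no sequence that met the other demands lay outside. After normalisation 5 members had a liver difference under 0.5, of which isotig03813 had the smallest (0.13), with 6.59, 6.63, 6.63 and 6.56 in starved livers and 6.28 to 6.72 in fed livers.

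Differences between diets among the fed fish were not used in choosing the members and were tested with limma over all 25225 sequences. In the liver 2 members differed between MHL and HLL (adjusted P value under 0.05), against 1.57% of all sequences. One was isotig13706, with 13.46, 13.18, 13.50 and 13.25 with MHL and 12.80, 12.90, 12.74 and 12.82 with HLL. The groups did not overlap, and the difference was 0.54 (SE 0.07, limma adjusted P value 0.00594), and the call was lost with processed signals and with log ratios. The other was isotig12228, with 13.95, 14.23, 14.01 and 14.19 with MHL and 14.61, 14.60, 14.49 and 14.62 with HLL. Here MHL was lower in all fish, by a difference of -0.49 (SE 0.10, limma adjusted P value 0.0372), so that the starved fish, which had the highest liver levels of both sequences, were nearer to MHL for isotig13706 and nearer to HLL for isotig12228. With the brighter probe alone the isotig12228 difference was -0.16, and the call was lost there and without any of 7 of the 8 fish fed HLL or MHL.

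No member differed between LLH and HLL in the liver with limma (2.2% of all sequences), nor between LLH and MHL (0.00396%). At an unadjusted P value under 0.05 there were 6 members in each of these contrasts, against 3787 of the 25225 sequences for LLH against HLL and 2267 for LLH against MHL. The smallest P values for LLH against HLL were those of isotig13061 (-1.30, SE 0.39, limma adjusted P value 0.114), isotig12228 (-0.35, SE 0.11, 0.116) and isotig04956 (0.39, SE 0.12, 0.117). For LLH against MHL they were those of isotig13706 (-0.47, SE 0.07, limma adjusted P value 0.0933), isotig07739 (-0.39) and isotig06481 (0.26). The isotig13706 livers of fish fed LLH had 13.00, 12.72, 12.91 and 12.88, all below the fish fed MHL. Fits of log ratios, of the scanner data or of the deposited table, gave no member in any of these contrasts.

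In the skeletal muscle no member differed in limma between MHL and HLL (0.0159% of all sequences), between LLH and HLL (0.238%) or between LLH and MHL (0.0%). At an unadjusted P value under 0.05 there were 6, 7 and 11 members in these contrasts, against 10.3, 11.7 and 6.2% of all sequences. The largest diet difference of the set was that of isotig19322. It had 14.86, 15.17, 15.02 and 15.21 in fish fed LLH, 12.41, 14.31, 12.12 and 12.41 with HLL, and 11.97, 13.17, 13.21 and 12.51 with MHL. All fish fed LLH were above all others, and the difference was 2.29 from HLL (SE 0.42, limma adjusted P value 0.0556) and 2.41 from MHL (SE 0.41, 0.148). In the liver the LLH-minus-HLL difference of isotig19322 was 0.18 (SE 0.22). Its liver means, 6.69 with LLH and 6.58 with HLL, were near the lower end of the scale. A small difference at such levels does not show that diet had no effect there. The difference between the tissues, 2.16 (SE 0.51), was significant (limma adjusted P value 0.0308), the only such member, against 1.36% of all sequences. This call was lost in 13 of 42 alternatives, among them log ratios, median centring within arrays, a normexp offset of 0, processed signals and the omission of any of 8 single fish. For isotig19322 the muscle of every fish fed LLH was thus farther from that of starved fish than the muscle of any fish on other diets. The LLH mean was also the highest of the diets in the muscle for isotig07211, isotig07675, isotig08514, isotig16546 and isotig19142. Over the members LLH was more often the nearest diet, as given below. Other small unadjusted P values in the muscle were those of isotig06321 (MHL minus HLL -0.90), isotig06799 (0.66), isotig08647 (-0.38 for MHL and -0.35 for LLH, both against HLL), isotig13706 (LLH minus HLL -0.43, LLH minus MHL -0.49) and isotig07211 (LLH minus MHL 0.68), all with a limma adjusted P value between 0.142 and 0.541.

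The median of the member differences between diets, taken with their sign, was small. In the liver the median member difference was 0.00 for MHL minus HLL and for LLH minus HLL, and 0.04 for LLH minus MHL, where the median of all sequences was 0.00. In the muscle it was -0.01 for MHL minus HLL, -0.15 for LLH minus HLL and -0.16 for LLH minus MHL, with medians of all sequences of 0.00. Opposite signs cancel in these medians. Without the sign the median size in the muscle was 0.202, 0.226 and 0.209 in that order, against 0.055, 0.059 and 0.048 over all sequences. For the liver the sizes were 0.137, 0.173 and 0.155, against 0.067, 0.07 and 0.058. The members were also brighter, with a fed muscle median of 10.23 against 6.89. The LLH-minus-HLL difference was above 0 for 8 members in the muscle, against 52.4% of all sequences, and for 17 in the liver, against 50.5%. The mean of LLH was the lowest of the 3 diets, and so the nearest to starved muscle, for 21 of 34 members, against 31.0% of all sequences. Among these were the liver-bright members isotig01469, isotig01470, isotig03434 and isotig15329. Also among them were the pairs with adjacent numbers, which may not be separate measurements. In the liver the diet nearest to the starved fish was LLH for 14 members, HLL for 12 and MHL for 8, against 33.1, 35.9 and 31.0% of all sequences. The median over the members was between 9.91 and 10.18 in muscle of fish fed LLH, 10.10 to 10.44 with MHL and 10.13 to 10.35 with HLL, so that the groups overlapped, and between 8.19 and 8.40 in starved muscle.

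**Figure D5:**
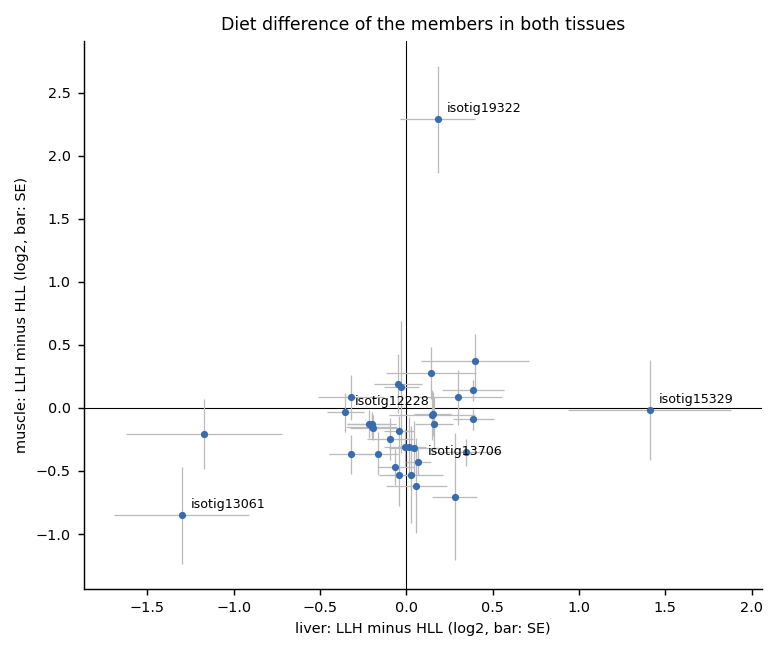
LLH-minus-HLL log2 difference of each member in the muscle (y axis) against that in the liver (x axis), with bars for the SE of the limma fit. Most members lie within 0.5 of 0 in both tissues, and isotig19322 stands apart with 2.29 in the muscle and 0.18 in the liver.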

How the data were processed

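Liver and white skeletal muscle RNA was labelled with both dyes and hybridised to 16 arrays. The authors deposited the Agilent Feature Extraction (version 10.7) output, from which median and processed intensities were used, and a table of normalised log2 ratios, which the authors made and which served here as an alternative. Members were found on the processed intensities, averaged over the spots of a sequence. For levels and tests limma 3.58.1 was run under R 4.3.3 (statmod 1.5.0). Raw median intensities went through normexp (offset 50), the 1319 control spots were removed, flagged outlier spots became missing values, and Loess and Aquantile followed. Spots and then probes were averaged. The model had terms for group and dye, treated channels of one array as correlated, and used Benjamini-Hochberg adjustment across the 25225 sequences. Muscle-minus-liver levels and the check of the tissue labels used values normalised jointly over 32 channels. The tissue difference of LLH minus HLL came from a joint fit of these. This fit treated liver and muscle channels as separate animals, although some may come from one animal. Other levels of single fish, also in the figures by fish and group, were normalised within each tissue. Tested on simulated data for LLH against HLL over 25225 sequences, the fit found 181 (liver) and 177 (muscle) of 200 sequences changed by 1. False calls were 5 and 4. The simulated noise was normal and had the spread of the same fit, so the model itself was not checked against the data. The changed sequences were drawn from all sequences, so these counts do not show how many changed members would be found.

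The members and the lists were chosen with earlier results of these data known. Members named in the text were the 12 with the largest smaller difference, the 4 with the largest difference in each tissue, those called or with the smallest P value in each diet contrast, those nearest to the threshold and those with adjacent numbers. Others were named after their values were seen, as were the 100 sequences brightest in either tissue. The planned gene lists and probe sequences were not used here. Nothing states that the fish of a group came from separate tanks, and P values measure the spread between these fish. The number of arrays limits the precision. The alternatives tried were log ratios, the deposited table, normexp with an offset of 0, processed signals, median centring within arrays, no normalisation between arrays, a filter on dim probes, the brightest probe, no dye term, the fish number as a replicate block and each fish left out.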

Additional observations from a re-analysis of the deposited data

Results flagged for a closer look

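In 11 of 224 groups of 4 fish looked at over 28 members, one fish lay far from the other 3 by Dixon's criterion. Chance gives about 1 in 20 groups. In the muscle these were HLL fish 1 for isotig02204 (11.12, others 10.75 to 10.79) and isotig07071 (12.28, others 13.67 to 13.71), HLL fish 3 for isotig19142 (7.58, others 7.85 to 7.89), and HLL fish 2 for isotig19322 (14.31, others 12.12 to 12.41). LLH fish 2 was high for isotig03813 (9.61, others 8.89 to 8.94) and isotig06481 (11.38, others 10.90 to 10.95). Among starved muscles, fish 4 was high for isotig06481 (8.91, others 8.55 to 8.56), fish 3 for isotig12228 (10.50, others 9.98 to 10.06) and fish 2 for isotig13706 (7.11, others 6.77 to 6.81). In the liver, isotig12228 was low in HLL fish 3 (14.49, others 14.60 to 14.62) and in starved fish 2 (15.01, others 15.34 to 15.39).

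Between tissues, the LLH-minus-HLL difference of isotig19322 was 2.16 higher in the muscle than in the liver (limma adjusted P value 0.0308). Over 42 alternatives this value lay between 1.79 and 2.68, with adjusted P values between 0.00159 and 0.408. The liver levels of isotig19322 in fed fish were near the lower end of the scale. The opposite starvation differences of the 34 members in liver and muscle follow from their choice, and that difference was not tested.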

How the results depend on the processing

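The count of 34 members stayed within 1.5 times under thresholds of 0.5 (35) and 1 (26), without the demand on background (39) and without the doubtful Cy5 fish (36). It was 85 on normalised values, of which 19 were among the 34, 19 where every probe had to meet the rule by itself, and 102 (25 among the 34) with channels centred on their medians, an alternative added after seeing the data. A second such addition, without the muscle array of HLL fish 1 and MHL fish 1, gave 42. Leaving out each fish gave 34 to 57, the highest without starved muscle fish 4. 

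Of the members called for MHL against HLL in the liver, 2 in the fit reported, 0 were called with log ratios and with the authors' log2 ratios, and 1, isotig13706, with the brightest probe, median centring within arrays or a normexp offset of 0. Processed signals called 1 other member, isotig15928, and neither of the 2. Without each fish 1 to 2 members were called. The call of isotig12228 was lost without HLL fish 1, 2, 3 or 4 and MHL fish 1, 3 or 4. For LLH against HLL in the muscle 1 member was called with the filter on dim probes, the offset of 0 or processed signals, and 4 without normalisation between arrays. That setting gave 5 for MHL against HLL and 4 for LLH against MHL in the muscle, and processed signals gave 1 for the latter. Without each fish the counts were 0 to 1 for LLH against HLL in either tissue and for LLH against MHL in the liver. The tissue difference was called for 0 members with log ratios, the authors' log2 ratios, median centring, the offset of 0 or processed signals, for 2 without normalisation between arrays, and for 0 to 2 without each fish. For isotig19322 it was lost without liver HLL fish 1 or 3 or LLH fish 3, and without muscle HLL fish 1, 3 or 4 or LLH fish 2 or 4. Liver HLL fish 1, whose omission lost this call and that of isotig12228, is the fish with the names of 2 diets. Median member differences moved past the spread of fish for MHL minus HLL in the muscle (0.12 with median centring, -0.28 with processed signals) and LLH minus MHL in the muscle (0.07 with processed signals). Without each fish they lay at -0.03 to 0.01, -0.04 to 0.03 and 0.03 to 0.12 in the liver and at -0.08 to 0.03, -0.22 to -0.11 and -0.18 to -0.08 in the muscle, in the order MHL minus HLL, LLH minus HLL and LLH minus MHL. The causes were not tested. Over all sequences log ratios gave 2 calls for MHL against HLL and 3 for LLH against HLL in the liver, against 395 and 554.

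The fit reported did not treat fish of equal number as pairs. Correlations between fish of equal number lay between -0.26 and 0.48, and those of unequal number between -0.49 and 0.36. These overlapping ranges cannot exclude pairing. With the number as a replicate block 1 member was called for MHL against HLL in the liver, 1 for LLH against HLL in the muscle and 1 for the tissue difference. Members near the lower end of the intensity scale, in fed liver or starved muscle, have differences limited by background and made smaller by the offset of 50.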
